A study of Danio rerio with 6 samples.

Results

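The 10 genes described here encode transcription factors of the hemangioblast, the mesodermal precursor of blood and vessels, and of the definitive blood progenitors that follow it. They are npas4l, etsrp (the zebrafish etv2), fli1, erg, gata2a, gata2b, runx1, cbfb, myb and ikzf1. They were chosen by name for their known roles, with earlier results of these data known. Each maps to 1 Ensembl gene ID among the 32520 IDs of the count files. Of the 10, 3 are listed under the zebrafish symbol, 6 under its capital form (FLI1, ERG, RUNX1, CBFB, MYB and IKZF1), and gata2a is taken as the single ID listed as GATA2.

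Cells were sorted by flow cytometry for RFP, as blood progenitors, out of zebrafish (Danio rerio) embryos that were 20 h old counted from fertilization, and each RNA-seq library was made from 30000 of them. The embryos under test were blf-/-;drl 4KO (the mutants), mutant for blf and for drl genes, a family of zinc finger genes active where blood forms (3 libraries). The controls carried the same blf gene-trap allele that drives the RFP (3 libraries), and their genotype is blf-/- in the sample labels and blf+/- in the series design. The RFP that defined the sort is therefore read from a mutated locus in both groups, and any cell that reads the trap is collected, blood or not. Total counts ranged from 12751618 to 18101975. drl had 0, 1 and 6 reads in blf-/-;drl 4KO replicates 1, 2 and 3, against 7335, 7131 and 6856 reads in control replicates 1, 2 and 3. Its relatives drll.1, drll.2 and drll.3 had at most 7 reads in any mutant library and at least 371 in every control. blf, the locus of the sort reporter, had 2349, 1417 and 687 reads in mutant replicates 1, 2 and 3, against 34737, 30636 and 31169 reads in control replicates 1, 2 and 3, and these values do not settle the genotype of the controls.

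In zebrafish, the bHLH-PAS factor npas4l acts at the top of the hemangioblast program and switches on etsrp and tal1. etsrp is an ETS factor that starts the vessel program and is needed for early myeloid cells, and fli1 and erg are related ETS factors kept on in endothelium. gata2a and gata2b are paralogs, with gata2a known from vessels and gata2b from the hemogenic endothelium, where it acts upstream of runx1. Runx1 binds DNA together with its partner Cbfb and drives the emergence of definitive blood stem cells from the aorta. Myb maintains those cells, and the zinc finger factor Ikaros, encoded by ikzf1, is known for its role in lymphoid cells.

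The 10 genes did not move together. The ETS genes etsrp and fli1 and the Runx partner cbfb rose in the blf-/-;drl 4KO cells, by 4.96-fold, 2.39-fold and 2.24-fold. ikzf1 fell, at 2.27-fold less than in controls. npas4l, gata2a and myb did not pass the test, and erg, gata2b and runx1 had too few reads to enter it. Of all 14517 genes tested, 13.0% were called higher and 9.92% lower in blf-/-;drl 4KO cells (edgeR's quasi-likelihood test, Benjamini-Hochberg adjusted p under 0.05). Among the 7 genes of the set that were tested, 3 were called higher and 1 lower. Their CPM did not overlap between the groups in 6 of 7 cases, and 42.5% of all genes tested were without overlap. CPM are read counts per 1000000 reads of the library, scaled for library composition and not divided by gene length, so levels are compared between groups and not between genes.

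**Figure D1:**
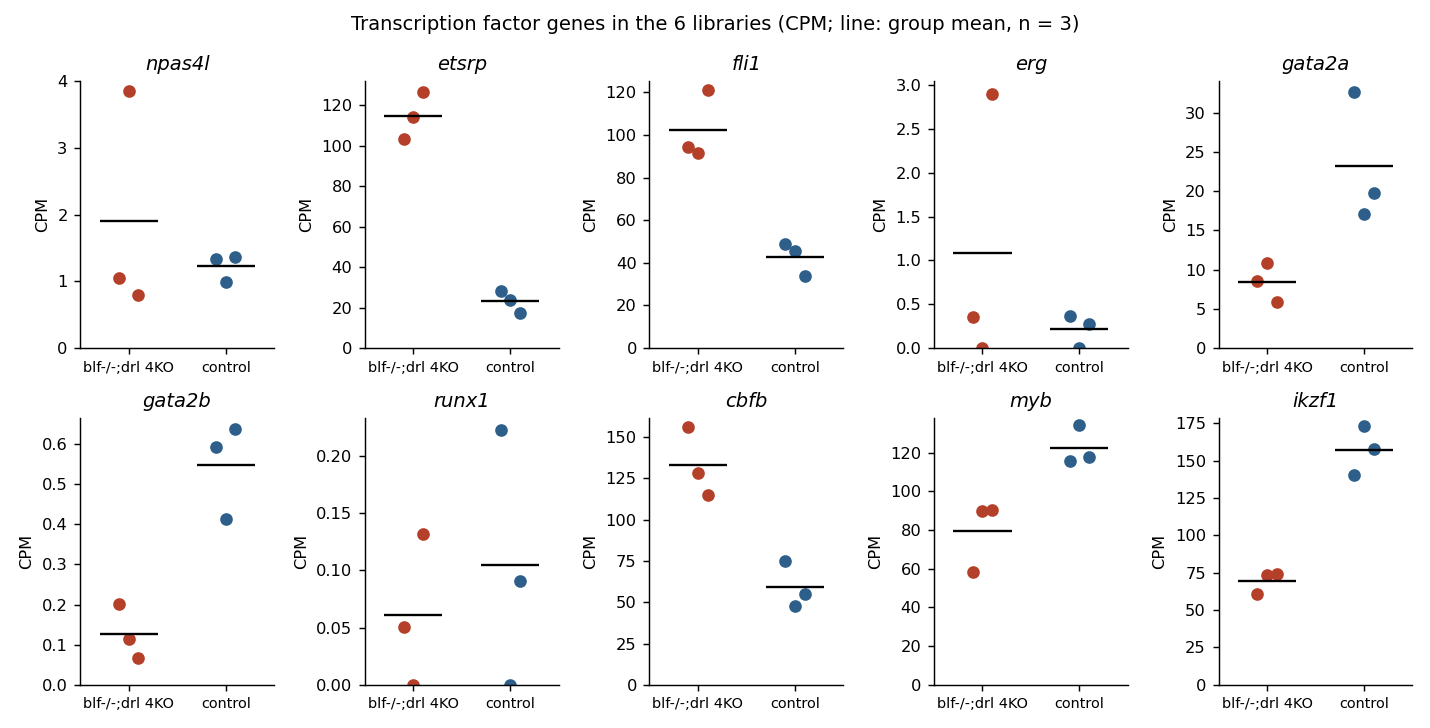
CPM of each of the 10 genes in the 3 blf-/-;drl 4KO libraries (left, red) and the 3 control libraries (right, blue), with the group mean as a line and an axis from 0 in each panel. etsrp, fli1 and cbfb lie higher in every blf-/-;drl 4KO library than in any control, ikzf1, myb, gata2a and gata2b lie lower, and the other 3 genes overlap.

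npas4l was barely read in either group. Levels were 1.06, 3.85 and 0.792 CPM in blf-/-;drl 4KO replicates 1, 2 and 3, against 1.33, 0.990 and 1.36 CPM in control replicates 1, 2 and 3, which is 12 to 68 reads a library. Only blf-/-;drl 4KO replicate 2 was high, and the other 2 of its group lay within or below the control range. The log2 fold change was 0.63 (SE 0.90, 95% interval -1.35 to 2.60, adjusted p = 0.655, edgeR), and without that replicate it was -0.39 (adjusted p = 0.806, edgeR). The interval holds both a fall and a larger rise, so no difference was detectable with these few reads and this spread.

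etsrp, whose product opens the vessel program, stood at 103, 114 and 126 CPM in mutant (blf-/-;drl 4KO) libraries, against 28.0, 23.9 and 17.4 CPM in the controls. Every one of them was far above every control. The means were 115 ± 11.7 CPM in blf-/-;drl 4KO cells and 23.1 ± 5.35 CPM in controls (SD, n = 3 each). Its log2 fold change of 2.31 (SE 0.29, 95% interval 1.67 to 2.95, adjusted p = 0.000249, edgeR) was the largest among the tested genes of the set. In size it was above those of 83.7% of all genes tested.

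fli1 moved the same way by a smaller amount. It had 94.3, 91.4 and 121 CPM in blf-/-;drl 4KO replicates 1, 2 and 3, against 48.8, 45.6 and 33.7 CPM in the controls, with no overlap. The means were 102 ± 16.3 CPM in blf-/-;drl 4KO cells and 42.7 ± 7.95 CPM in controls (SD, n = 3 each), a log2 fold change of 1.26 (SE 0.27, 95% interval 0.66 to 1.86, adjusted p = 0.00704, edgeR).

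erg, the third ETS gene, was nearly silent. It had 7, 0 and 44 reads in blf-/-;drl 4KO replicates 1, 2 and 3, against 5, 0 and 3 reads in control replicates 1, 2 and 3. A single library, blf-/-;drl 4KO replicate 3, held most of its reads. Neural markers (ELAVL3, SOX2 and both genes listed as SNAP25) summed to 12.5, 9.22 and 29.8 CPM in blf-/-;drl 4KO replicates 1, 2 and 3, and to at most 5.53 CPM in controls, with 1 of 3 tested genes higher. The high sum of replicate 3 came from ELAVL3, at 0.704, 2.43 and 21.0 CPM in blf-/-;drl 4KO replicates 1, 2 and 3, whereas SNAP25 (ENSDARG00000020609), the called gene, was highest in replicate 1, at 10.3 CPM. This SNAP25 gene was at 1.04, 0.0825 and 0.182 CPM in control replicates 1, 2 and 3, so it entered the test through the mutant libraries. Skeletal muscle markers were highest in replicate 3 as well, summing to 1492, 894 and 2186 CPM in blf-/-;drl 4KO replicates 1, 2 and 3. The part of neural, muscle or other cells in the erg reads was not tested. For erg, the ratio of scaled reads was 4.43 over all libraries (95% exact binomial interval 2.09 to 10.8). Without blf-/-;drl 4KO replicate 3 it was 0.853 (0.263 to 2.69). Such intervals cover counting error only. With no filter on low counts, edgeR gave erg an adjusted p of 0.332. A library with 0 reads allows a level of up to 0.170 CPM in blf-/-;drl 4KO replicate 2 and 0.247 CPM in control replicate 2 (3 counts per library).

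The counts of the ETS genes were also divided by gene within each library. etsrp held 52.2%, 55.5% and 50.5% of the counts of etsrp, fli1 and erg in blf-/-;drl 4KO replicates 1, 2 and 3, against 36.2%, 34.4% and 33.8% in control replicates 1, 2 and 3. The groups were apart, with means of 52.7% ± 2.55 in blf-/-;drl 4KO cells and 34.8% ± 1.27 in controls (SD, n = 3 each). This share is formed within a library and does not depend on how libraries are scaled, although it does depend on the lengths of the transcripts. The two-sided exact permutation test gave p = 0.1, the smallest that 3 libraries against 3 allow.

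Both ETS genes are read in endothelium, and endothelial markers were higher in the same libraries. The summed CPM of kdrl, cdh5, TIE1, pecam1a and clec14a ranged from 280.2 to 332 in blf-/-;drl 4KO libraries and from 82.1 to 83.5 in controls, a ratio of 3.73, and 4 of the 5 genes rose. kdrl, the vascular endothelial growth factor receptor gene commonly used to mark vessels, was the exception, at 20.5 ± 4.10 CPM in blf-/-;drl 4KO cells and 13.2 ± 1.39 CPM in controls (SD, n = 3 each, adjusted p = 0.409, edgeR). Of the 4 that rose, pecam1a was near the floor in controls, at 0.888, 0.825 and 0.819 CPM in replicates 1, 2 and 3. It was at 23.8, 27.5 and 4.22 CPM in blf-/-;drl 4KO replicates 1, 2 and 3, and it entered the test through these libraries. Divided by that marker sum, etsrp was at 0.311, 0.365 and 0.451 in the blf-/-;drl 4KO libraries and at 0.335, 0.291 and 0.210 in the controls, so the groups overlapped. fli1 divided by the same sum was at 0.284, 0.292 and 0.432 in the blf-/-;drl 4KO libraries and at 0.585, 0.555 and 0.409 in the controls, also with overlap. The mean for etsrp was 0.376 in blf-/-;drl 4KO libraries and 0.279 in controls. For fli1 the means went the other way, 0.336 and 0.516. All 5 markers are also in the list of ETS target genes described below, so the divisor is not separate from these factors. These quotients were formed after the values were seen and carry no test. In bulk samples, more cells of a type and more RNA per cell cannot be told apart.

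**Figure D2:**
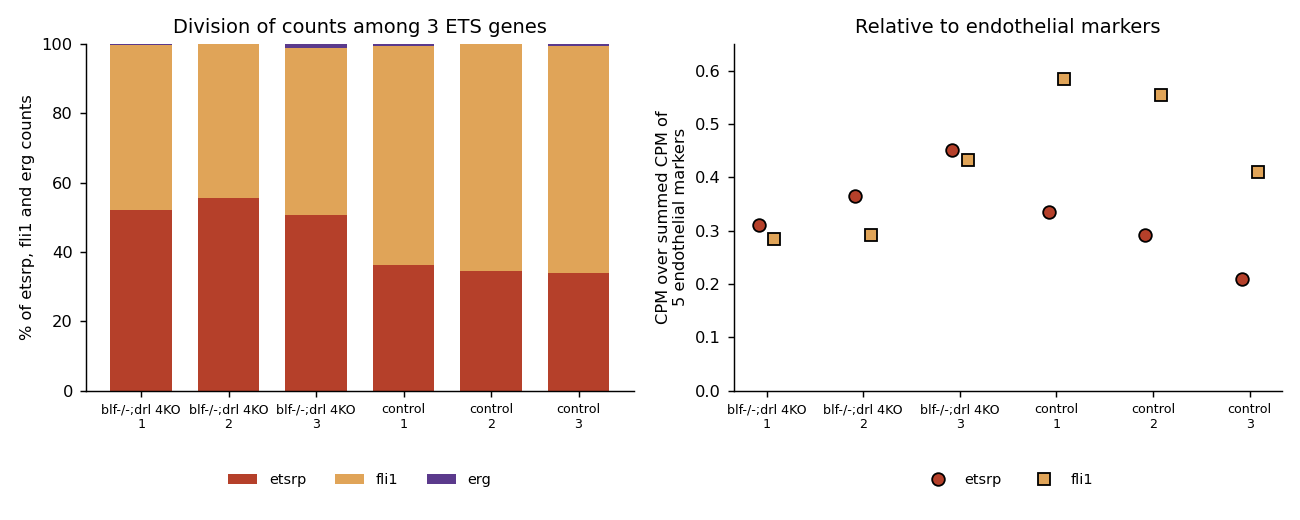
Left, the percentage of the counts of etsrp, fli1 and erg that each gene held in every library (stacked bars). Right, CPM of etsrp and fli1 divided by the summed CPM of 5 endothelial markers, where the libraries of the groups overlap for each gene. Mutant libraries stand left of controls in both panels.

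Neither GATA2 paralog was called. For gata2a the levels were 8.55, 10.9 and 5.94 CPM in blf-/-;drl 4KO replicates 1, 2 and 3, against 32.7, 17.1 and 19.7 CPM in the controls. The groups were apart, but control replicate 1 stood well above the other controls. The log2 fold change was -1.45 (SE 0.58, 95% interval -2.72 to -0.19), and the unadjusted p of 0.028 became an adjusted p of 0.0947 (edgeR). DESeq2 gave a similar value of -1.50 with an adjusted p of 0.00856, so the call depends on the tool, while the other alternatives that gave a value for gata2a lay between 0.0644 and 0.268.

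gata2b, the paralog of hemogenic endothelium, had 4, 2 and 1 reads in blf-/-;drl 4KO replicates 1, 2 and 3, against 8, 5 and 7 reads in control replicates 1, 2 and 3. Its groups did not overlap, on 27 reads in all. The ratio of scaled reads was 0.243 (95% exact binomial interval 0.0869 to 0.599, counting error only), and with no filter edgeR gave an adjusted p of 0.284. gata2b made up 1.48% ± 0.713 of the counts of both paralogs in blf-/-;drl 4KO cells and 2.42% ± 0.676 in controls (SD, n = 3 each, two-sided exact permutation p = 0.2).

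The products of runx1 and cbfb form a single DNA-binding complex, but only cbfb had enough reads to be tested. runx1 had 1, 0 and 2 reads in blf-/-;drl 4KO replicates 1, 2 and 3, against 3, 0 and 1 reads in control replicates 1, 2 and 3. The ratio of scaled reads was 0.521 with an exact binomial interval of 0.0764 to 3.08 (95%), which covers counting error only and holds both a fall and a rise. cbfb had 156, 128 and 115 CPM in blf-/-;drl 4KO replicates 1, 2 and 3, against 75.3, 47.6 and 55.3 CPM in the controls, with no overlap. Its means were 133 ± 21.2 CPM in blf-/-;drl 4KO cells and 59.4 ± 14.3 CPM in controls (SD, n = 3 each), and its log2 fold change was 1.16 (SE 0.26, 95% interval 0.59 to 1.74, adjusted p = 0.00833, edgeR). runx1 held 0.0490% ± 0.0592 of the counts of the pair in blf-/-;drl 4KO cells and 0.153% ± 0.147 in controls (SD, n = 3 each, two-sided exact permutation p = 0.4). cbfb thus rose in libraries in which the reads of runx1 were at or near 0.

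myb and ikzf1 had lower levels in the mutants, myb without passing the test. myb, the stem cell maintenance factor, was read at 58.3, 89.9 and 90.5 CPM in blf-/-;drl 4KO replicates 1, 2 and 3, against 115, 134 and 118 CPM in the controls. The groups were apart, and the lowest library was replicate 1 of the mutants. The log2 fold change of -0.62 (SE 0.25, 95% interval -1.17 to -0.08) had an unadjusted p of 0.0291 and an adjusted p of 0.0974 (edgeR), and with library totals in place of scaling factors it was -0.30.

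ikzf1 had 60.6, 73.4 and 74.0 CPM in blf-/-;drl 4KO cells, against 141, 173 and 158 CPM in the controls. It was the only gene of the set called lower by edgeR, and its libraries were tight within each group. The means were 69.4 ± 7.55 CPM in blf-/-;drl 4KO cells and 157 ± 16.2 CPM in controls (SD, n = 3 each). The log2 fold change was -1.18 (SE 0.22, 95% interval -1.66 to -0.70, adjusted p = 0.00306, edgeR).

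**Figure D3:**
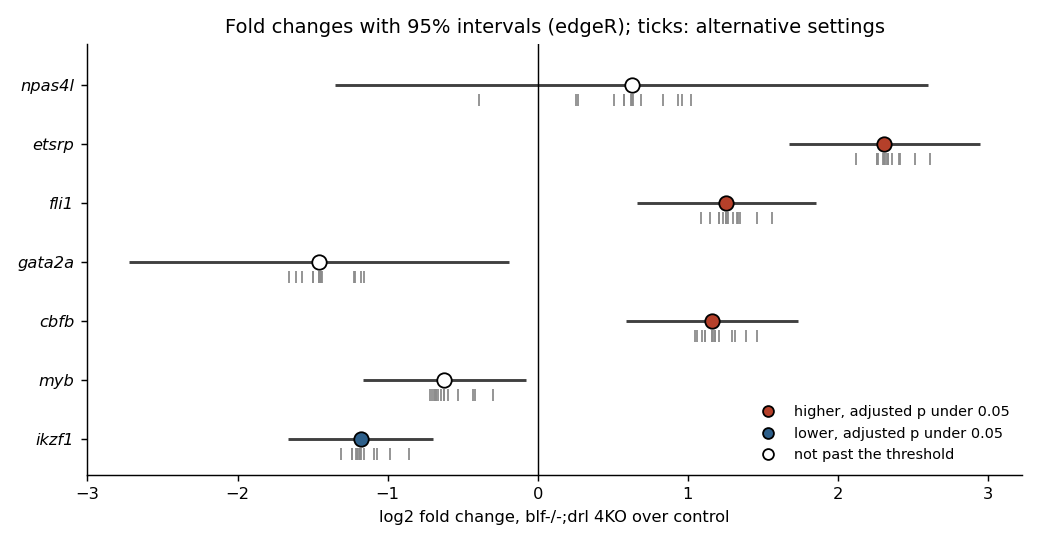
log2 fold changes of the 7 tested genes (blf-/-;drl 4KO over control, circles) with 95% intervals (lines, not adjusted for the number of genes) and the values under the alternative settings (grey ticks). etsrp, fli1 and cbfb stay above 0 and ikzf1, gata2a and myb below 0 under every alternative that gave a value, while npas4l has ticks on both sides.

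The blood compartment around these genes differed strongly between the groups. Summed CPM of red cell markers ranged from 7201 to 10030 in blf-/-;drl 4KO libraries and from 59360 to 75380 in controls, and 4 of 5 such genes fell. The globin gene hbae1.1 made up most of that sum in every library. The gene not called was listed as SLC4A1 (ENSDARG00000024560, adjusted p = 0.989, edgeR). Macrophage markers summed to between 4280 and 5714 CPM in blf-/-;drl 4KO libraries and between 831 and 979 CPM in controls, with 8 of 10 tested genes higher. Most of those 8 share the symbol MFAP4, and genes of that symbol made up most of the sum in every library. The rest were MPEG1 (ENSDARG00000055290), LCP1 and SPI1. Not called were csf1ra (adjusted p = 0.321, edgeR) and an MFAP4 gene, ENSDARG00000088745 (log2 fold change 0.69, adjusted p = 0.0726, edgeR). Among the called MFAP4 genes, ENSDARG00000038683 was at 1.41, 1.07 and 0.637 CPM in control replicates 1, 2 and 3. That gene entered the test through the mutant libraries. lyz, the neutrophil marker, ranged from 336 to 398 CPM in mutant libraries and from 110.4 to 209.7 CPM in controls. The thrombocyte markers itga2b, gp9 and mpl summed to between 4.03 and 7.80 CPM in mutant libraries and between 55.9 and 101.2 CPM in controls. Most of that control sum was gp9, the only one of 2 tested genes that fell (log2 fold change -4.14, adjusted p = 0.000137, edgeR). Of the markers for definitive stem and progenitor cells, only the pan-leukocyte gene ptprc rose, at 179 ± 5.69 CPM in blf-/-;drl 4KO cells and 39.2 ± 8.61 CPM in controls (SD, n = 3 each, adjusted p = 0.000103, edgeR). KIT was at 0.400 ± 0.307 CPM in blf-/-;drl 4KO cells and 0.973 ± 0.188 CPM in controls, and cd34 ranged over both groups without a call (adjusted p = 0.302 for KIT and 0.750 for cd34, edgeR).

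Markers from outside blood and vessels moved too. Epidermal markers summed to between 620.4 and 1060 CPM in mutant libraries and between 10.3 and 28.5 CPM in controls, and all 3 rose. Of these, cldni was at 0.370, 0.577 and 0.455 CPM in control replicates 1, 2 and 3, and cyt1 at 0.518, 5.86 and 0.455 CPM. Both entered the test through the mutant libraries, which favours a call of higher. Skeletal muscle markers ranged from 894 to 2186 CPM in mutant libraries and from 186 to 573 CPM in controls, with 2 of 5 genes higher. Those 2 are both listed as TTN. MYOD1 (adjusted p = 0.251, edgeR) and both genes listed as ACTA1 (adjusted p = 0.102 and 0.0898, edgeR) were not called. The part of these cell types in the changes of the transcription factor genes was not tested.

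**Figure D4:**
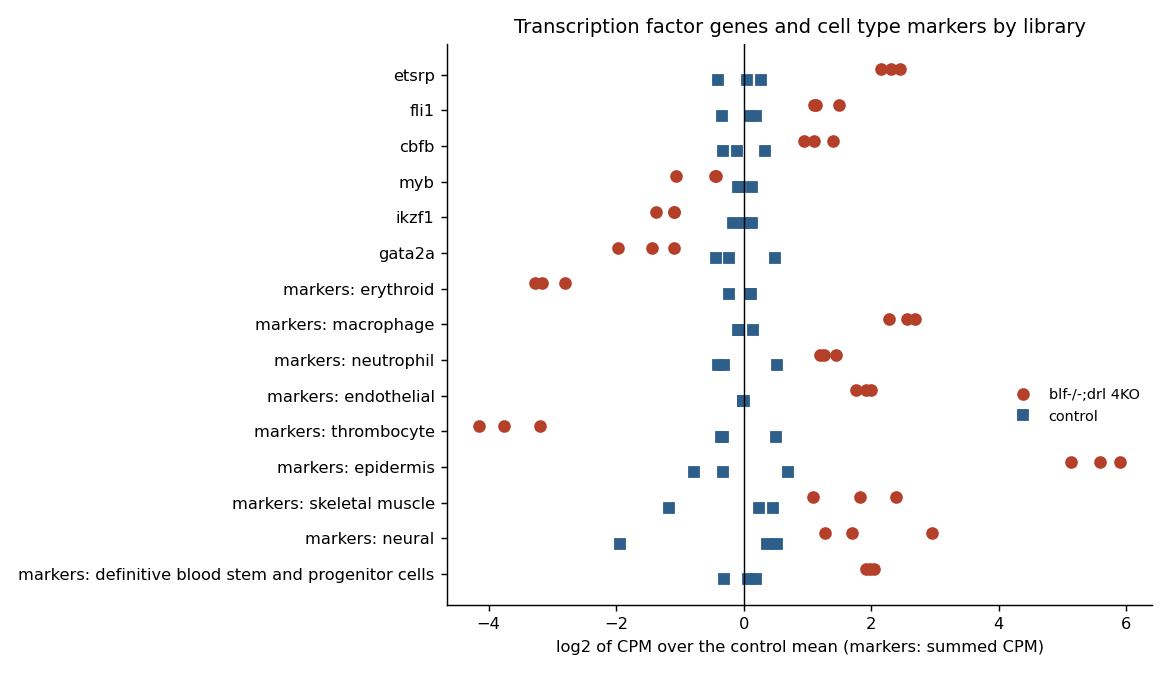
log2 of each library's CPM over the control mean for 6 of the transcription factor genes and for the summed markers of 9 cell types (blf-/-;drl 4KO libraries as circles above, controls as squares below). etsrp, fli1 and cbfb lie to the right, as do macrophage, neutrophil, endothelial, epidermal, skeletal muscle and neural markers. The definitive stem and progenitor markers, a sum made up mostly of ptprc, lie to the right as well. ikzf1, myb and gata2a lie to the left with red cell and thrombocyte markers.

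Partner and target genes were taken from lists built from knowledge of the pathway. The lists were chosen with earlier results of these data known, so their shares are descriptions and not independent support. Over the 8 lists, 119 gene IDs were found, of which 96 were tested. Of these 27 (28.1%) were called higher and 8 (8.33%) lower in the mutants, beside 13.0% higher and 9.92% lower over all genes tested, with a median log2 fold change of 1.14 beside 0.11 for all genes tested. Of the 96, 56 had a control mean of at least 5 CPM. The others include genes that could enter the test on the strength of the mutant group by itself, and a count of rises gains from that.

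Of 11 tested relatives of etsrp in the ETS family, 6 rose and 5 did not pass, with a median log2 fold change of 2.04. The 6 are 54.5% of the list, beside 13.0% higher over all genes tested. A control mean of at least 5 CPM was reached by 7 of the 11. With 1 library left out at a time, 4 to 6 rose. FEV, 1 of the 6, averaged 7.07 ± 6.26 CPM in mutant cells and 0.217 ± 0.314 CPM in controls (SD, n = 3 each), so it entered the test through the mutant libraries. SPI1, which encodes the myeloid factor Pu.1, averaged 537 ± 101 CPM in blf-/-;drl 4KO cells and 115 ± 12.0 CPM in controls (SD, n = 3 each, log2 fold change 2.22, adjusted p = 1.77e-05, edgeR). Its paralog spi1a averaged 75.8 ± 10.7 CPM against 15.5 ± 9.89 CPM in controls, and the blood ETS gene elf1 averaged 160 ± 17.7 CPM against 38.4 ± 18.7 CPM in controls. The log2 fold change of spi1a was 2.28, and 2.88 without control replicate 1.

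Among endothelial target genes of ETS factors 9 of 23 rose, 2 fell and 12 did not pass (median log2 fold change 1.46). The 9 are 39.1% of the list, beside 13.0% higher over all genes tested. All 5 endothelial markers described above are in this list too, and the 4 that rose are among these 9. A control mean of at least 5 CPM was reached by 14 of the 23. The phosphatase gene DUSP5 averaged 296 ± 48.0 CPM in blf-/-;drl 4KO cells and 94.5 ± 4.25 CPM in controls (SD, n = 3 each, log2 fold change 1.64, adjusted p = 0.000176, edgeR). The 2 that fell were TAL1 and LMO2, blood regulators that form a complex with GATA factors, at log2 fold changes of -2.22 and -2.40. Of 16 tested genes in the hemogenic endothelium list, which holds Notch, VEGF and TGF-beta genes, 7 rose and 9 did not pass (median 1.78). The 7 that rose are 43.8% of that list, beside 13.0% higher over all genes tested. Chemokine receptor and ephrin genes are in that list too, and both kinds were among those that rose. Of the 16, 7 had a control mean of at least 5 CPM. tgfb1a, a TGF-beta ligand gene, averaged 67.4 ± 15.7 CPM in mutant cells and 6.81 ± 0.492 CPM in controls (log2 fold change 3.31, adjusted p = 0.000141, edgeR). The chemokine receptor gene CXCR4 (ENSDARG00000041959) had a log2 fold change of 1.31, and 1 of the genes listed as VEGFA (ENSDARG00000103542), for the vascular growth factor, one of 3.42. This VEGFA gene averaged 28.3 ± 3.55 CPM in mutant cells and 2.63 ± 1.88 CPM in controls (SD, n = 3 each). It was at 0.637 CPM in control replicate 3, so it entered the test through the mutant libraries.

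In the GATA family and its cofactors 3 of 8 tested genes fell and 5 did not pass, with a median log2 fold change of -0.91. The 3 are 37.5% of this small list, beside 9.92% lower over all genes tested. Besides TAL1 and LMO2, which also stand among the ETS targets, the gene that fell was gata1a, the master regulator of red cells. It averaged 46.3 ± 21.7 CPM in mutant cells and 480.1 ± 14.6 CPM in controls (SD, n = 3 each, log2 fold change -3.37, adjusted p = 2.12e-05, edgeR). gata2a stood beside it at a log2 fold change of -1.45, short of the threshold, and the difference between these 2 GATA genes was not tested.

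Of 16 Runx partners and definitive progenitor genes, 3 rose, 3 fell and 10 did not pass (median 0.53). These counts are each 18.8% of the list, beside 13.0% higher and 9.92% lower over all genes tested. Those that rose were SPI1, the myeloid factor gene CEBPA and ptprc, and those that fell were jak2a, CBFA2T3, a corepressor gene, and GFI1B, which encodes a zinc finger repressor of red cells and platelets. GFI1B was at 0.0503, 0.283 and 1.72 CPM in blf-/-;drl 4KO replicates 1, 2 and 3. In control replicates 1, 2 and 3 it was at 11.7, 8.41 and 12.4 CPM. It entered the test through the control libraries, which favours a call of lower. jak2a, a kinase of cytokine receptors, averaged 25.5 ± 4.66 CPM in mutant cells and 110.1 ± 29.5 CPM in controls (SD, n = 3 each, log2 fold change -2.11, adjusted p = 0.000754, edgeR). The count of 3 lower became 1 with library totals for scaling, with no filter on low counts, at a threshold of 0.01, without control replicate 2, without control replicate 3 and without blf-/-;drl 4KO replicate 2, and it was 2 under 5 other alternatives. The related runx genes were low or uncalled, RUNX3 at 12.7 ± 3.06 CPM in mutant cells and 7.42 ± 4.04 CPM in controls (adjusted p = 0.492, edgeR), with RUNX2 and runx2b below the expression filter.

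Of the MYB family and its cell cycle partners 2 of 8 fell and 6 did not pass (median -0.92). These were mybbp1a, which encodes a Myb-binding protein of the nucleolus (log2 fold change -0.89, adjusted p = 0.0223, edgeR), and LIN52, a subunit of the complex that carries B-Myb (-0.81, adjusted p = 0.026). The count of 2 lower was 1 without control replicate 1 and 0 without control replicate 2, control replicate 3, blf-/-;drl 4KO replicate 1 or blf-/-;drl 4KO replicate 3, where the highest adjusted p were 0.122 for mybbp1a and 0.107 for LIN52. mybbp1a was also short of the threshold without blf-/-;drl 4KO replicate 2, at an adjusted p of 0.0561 (edgeR), although the count stayed at 2 there. The count was 4 with DESeq2, and 0 with library totals, with no filter and at a threshold of 0.01. Of Ikaros relatives and lymphoid genes 10 of 16 were too low to test, RAG1, PAX5 and lck among them. Of the 6 tested, 4 did not pass and 2 rose (33.3%, beside 13.0% higher over all genes tested), a small number to read as a share. The 2 that rose were ID2, an inhibitor of bHLH factors (log2 fold change 1.57), and CCR9 (ENSDARG00000055186), a chemokine receptor gene (3.08, and 3.84 without control replicate 2).

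Among bHLH-PAS genes, the family that supplies partners of npas4l, 1 of 12 rose and 11 did not pass, a share of 8.33% beside 13.0% over all genes tested. DESeq2 and limma-voom each called 2. The gene called higher by edgeR was HIF1A, which encodes an oxygen-regulated factor. HIF1A was at 90.0 ± 29.5 CPM in mutant cells and 40.6 ± 8.35 CPM in controls (SD, n = 3 each, log2 fold change 1.15, adjusted p = 0.0238, edgeR). It was no longer called without control replicate 1, 2 or 3 or without blf-/-;drl 4KO replicate 1, where its adjusted p was 0.0527, 0.0987, 0.0579 and 0.11. arnt and ARNT2, the common dimer partners, did not pass (adjusted p = 0.991 and 0.646, edgeR).

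**Figure D5:**
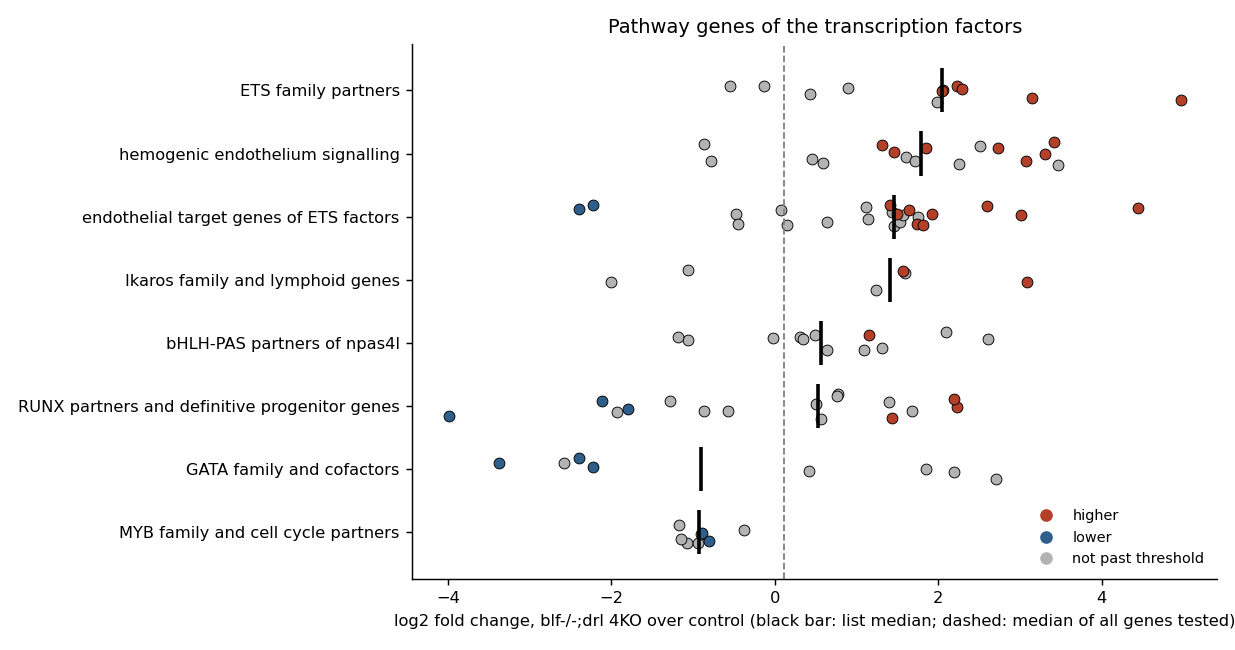
log2 fold changes (blf-/-;drl 4KO over control) of the tested genes in 8 pathway lists, coloured by call, with list medians as black bars and the median of all genes tested as a dashed line. Medians run from -0.92 for the MYB family to 2.04 for the ETS family, and calls in both directions occur among the ETS targets and the Runx partners.

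Genes with the profile closest to each changed factor were sought among 8749 tested genes, by the root mean square distance of centred log2 CPM over the 6 libraries. For etsrp they were rbfox2, a splicing regulator gene (distance 0.0747), and SELENOM, which encodes a selenoprotein (0.134). rbfox2 averaged 44.2 ± 5.21 CPM in mutant cells and 9.61 ± 2.43 CPM in controls. For fli1 they were the tubulin gene tuba1b (0.0769) and the muscle kinase gene spegb (0.117). For cbfb they were FERRY3 (0.106) and OSTF1 (0.139). For ikzf1 they were POLE4, a DNA polymerase epsilon subunit gene (0.0554), and CCT8, a chaperonin subunit gene (0.0581), and CCT8 averaged 229 ± 20.0 CPM in mutant cells and 552 ± 69.8 CPM in controls. These likenesses are descriptions over 6 libraries of 2 groups and are carried mainly by the difference between the groups.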

How the data were processed

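RNA of the sorted cells went into low-input libraries, per the labels' protocols. The authors deposited 1 table of raw counts for each of the 6 libraries, with 32520 Ensembl IDs. The tools named in the submitters' processing notes are featureCounts 1.6.0, HISAT2 2.2.1, SAMtools 1.10, FastQC 0.11.9 and bcl2fastq, and the build is GRCz11. The sources used here do not give the annotation release, the strand setting or the handling of shared reads, so the division of reads among close paralogs, overlapping genes and antisense partners is uncertain.

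Sample titles gave the groups and replicate numbers. No label ties the replicates to separate clutches or sorts. P-values therefore measure only the spread between these libraries, which may be technical. Within each group, replicate pairs differed beyond counting noise (chi-square per degree of freedom 31.8 to 68). A name table gave symbols for 29201 IDs (89.8%). Coordinates are not given, since the gene table used for synonyms is of another build.

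All genes were fitted with edgeR 4.0.16 (R 4.3.3), using filterByExpr, TMM factors, a robust dispersion and quasi-likelihood F tests. The contrast was blf-/-;drl 4KO minus control with no covariate, and p-values were adjusted over 14517 genes at a threshold of 0.05. The biological coefficient of variation was 66.5%. Standard errors were obtained by dividing the absolute log2 fold change by the root of F. The pipeline was tested on simulated counts in which a small part of the genes changed, in random directions. That test does not cover a wide shift in composition between the groups.

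List genes were matched by symbol, by capital form with or without paralog suffix, or by RefSeq synonym, keeping all IDs that share a symbol and leaving out the 10 genes themselves. From each list the 3 genes of smallest p are named, or all called ones where there are 3 or fewer. CEBPA, FEV, CBFA2T3, GFI1B, RUNX3, the RUNX2 genes, arnt, ARNT2, RAG1, PAX5 and lck were named after their values were seen. Nearest genes had a mean of at least 5 CPM and no clone-based symbol, with a prior count of 2 in log2 CPM. The 10 genes and the lists were chosen with earlier results of these data known.

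The alternatives were RLE factors or library totals for scaling, DESeq2 1.42.0 or limma-voom (limma 3.58.1) as the tool, no filter or a filter of 10 CPM in 3 libraries, leaving out globin and mitochondrial genes, a threshold of 0.01, a replicate block, and leaving out each library in turn.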

Additional observations from a re-analysis of the deposited data

How the results depend on the processing

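etsrp, fli1 and cbfb were called higher, and ikzf1 lower, under all 15 alternatives, with log2 fold changes of 2.12 to 2.61, 1.09 to 1.56, 1.05 to 1.46 and -1.31 to -0.86. With DESeq2, 2 of the genes were lower, gata2a being added. Leaving out 1 library at a time put npas4l between -0.39 and 1.02, the negative value being without blf-/-;drl 4KO replicate 2, and it had no value with the 10 CPM filter. Library totals moved the fold changes of all genes by a median of 0.31, and 71.5% of calls were then higher instead of 56.7%. Counts of all genes lower were 1440, 959 with library totals, 769 at a threshold of 0.01 and 868 to 1220 when 1 library was left out, the lowest without control replicate 2. At 0.01, 969 genes were higher. Of pathway list genes 17 were higher at 0.01 instead of 27. Those lower were 4 with library totals, 5 with no filter and 4 at 0.01 instead of 8, and 4 to 6 when 1 library was left out: 4 without control replicate 2 or 3 and 5 without blf-/-;drl 4KO replicate 1 or 3. mybbp1a and LIN52 were not called with library totals or no filter. Same-numbered libraries did not deviate together (correlations of -0.0408 to 0.00355). With the replicate number as a block (replicate block), 3 of the genes were higher and 1 lower, and 1651 genes were higher and 1277 lower over all genes. The shares within a library were recomputed only without each library and kept their direction. Depth limits erg, gata2b and runx1, which together had 93 reads.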
